A study of Mus musculus with 9 samples.

Results

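Described here are 10 genes of fibroblast growth factor (FGF) signalling in cells of the Shox2 lineage sorted from mouse limbs at E12.5. They are the receptor genes Fgfr1, Fgfr2 and Fgfr3 and the feedback targets Etv4, Etv5, Spry1, Spry2, Spry4, Dusp6 and Spred1. These 10 genes were chosen by name, with earlier results of these data known, and each matched 1 row of the 24102 rows of the expression table. All 10 were among the 12314 rows with at least 1 FPKM (fragments per kilobase of transcript, scaled to the sequenced total) in 3 or more columns. The lowest value of a member in any column was 7.26 FPKM, so the filter removed none.

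Both groups carried Cre at the Shox2 locus and the mTmG reporter at Rosa, in which Cre replaces a red membrane protein with a green one, and green cells were sorted. Control cells were Shox2(Cre/+);Rosa(mTmG) and mutant cells Shox2(Cre/-);Rosa(mTmG), so the controls too had only 1 Shox2 allele without Cre. The table used here gave 1 control and 1 mutant column for each of 3 litters, and every error below is over n = 3 columns per group. Labels exist for 2 mutant samples of litter 1, and no source used here says which of them its column holds. They do not say how many embryos were pooled, nor which part of Shox2 the alleles remove. Wild-type whole limbs were not analysed here.

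FGF ligands bind receptor tyrosine kinases of the FGFR family at the cell surface, with heparan sulfate as a helper, and a main output is the Ras and ERK kinase cascade. In the limb bud, FGFs from the apical ectodermal ridge signal to the mesenchyme, and mesenchymal Fgf10 signals back to the ridge. ERK activity raises transcription of the ETS factors Etv4 and Etv5 and of inhibitors that dampen the same cascade. Among these are the Sprouty proteins, the Spred proteins and Dusp6, a phosphatase of ERK. FGFR3 restrains the growth of cartilage, and FGFR1 acts mainly in the mesenchyme.

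Promoters are shown for Dusp6 and Etv5, lower in the mutant column of every litter, and for Fgfr3, higher in each. Fgfr2 was also higher in each, but the bases after its RefSeq start were not found in a GENCODE M21 transcript of the gene, and its window is not shown. Each run gives the 250 bases before a RefSeq start site in GRCm38.p6, 5′ to 3′ on the gene's strand, and Etv5 and Fgfr3 have a further start each that is not shown. Capitals mark the 6 letters CGGAAG, a core bound by ETS factors, on either strand.
Dusp6, chr10:99262981-99263230, plus strand: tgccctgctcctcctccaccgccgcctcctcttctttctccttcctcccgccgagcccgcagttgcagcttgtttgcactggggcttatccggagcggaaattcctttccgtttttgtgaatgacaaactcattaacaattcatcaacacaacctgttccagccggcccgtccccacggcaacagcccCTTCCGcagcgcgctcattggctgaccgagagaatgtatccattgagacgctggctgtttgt
Etv5, chr16:22439571-22439820, minus strand: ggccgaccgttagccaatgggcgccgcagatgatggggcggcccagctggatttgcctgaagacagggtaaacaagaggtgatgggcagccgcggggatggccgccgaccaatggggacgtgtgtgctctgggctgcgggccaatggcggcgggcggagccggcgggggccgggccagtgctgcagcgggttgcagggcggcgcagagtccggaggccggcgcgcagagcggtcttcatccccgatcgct
Fgfr3, chr5:33721474-33721723, plus strand: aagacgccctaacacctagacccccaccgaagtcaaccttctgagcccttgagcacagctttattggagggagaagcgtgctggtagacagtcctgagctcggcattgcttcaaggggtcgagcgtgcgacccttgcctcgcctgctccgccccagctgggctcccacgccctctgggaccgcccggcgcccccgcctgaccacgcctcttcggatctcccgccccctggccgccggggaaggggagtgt

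Dusp6 held 1 CGGAAG, read on the opposite strand and beginning 62 bases before the start. Etv5 and Fgfr3 held none in these windows. Windows were used for 7 members, Etv5, Spry1, Spry2, Dusp6, Spred1, Fgfr2 and Fgfr3, with 9 starts in all, and none for Etv4, Spry4 and Fgfr1. For Spred1 and the further Etv5 start, as for Fgfr2, the bases after the start were not found in a GENCODE M21 transcript. All 9 windows were counted all the same. The motif CGGAAG was present in 2 of the 9 windows, those of Dusp6 and Spred1, against 13.7% of 32536 distinct windows of the same length. The related ETS core CCGGAA, which shares 5 letters with it and can overlap it, was in 0 of the 9 windows and in 12.1% of all. The homeodomain core TAATTA was likewise in 0 of the 9 windows and in 4.84% of all. All 3 motifs were sought on both strands, and a match is a description of letters only.

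Before the members, 3 features of the columns have to be given. Shox2 was at 217, 222 and 210 FPKM in the controls of litters 1, 2 and 3 and at 16.7, 18.3 and 96.9 FPKM in the mutants. The litter 3 mutant thus kept 46.2% of its control's level, against 7.68% and 8.25% in litters 1 and 2. In litter 2 the mutant column had 0 FPKM of the Y-linked Eif2s3y and 178 FPKM of Xist, where its control had 23.9 and 34.6 FPKM, so sex composition and genotype cannot be told apart there. Xist also differed in litter 1, where its control had 12.1 FPKM and its mutant 36.8 FPKM, with Eif2s3y at 21.6 and 22.4 FPKM, and the part of sex composition there was not tested. Deviations from the group means were shared by the 2 columns of a litter. Between the columns of litter 1 and those of other litters their correlations across genes ran from -0.71 to -0.45. Between litters 2 and 3 they were 0.17 and 0.15. The 3 deviations of a group sum to 0 for every gene, so correlations between litters lean negative by construction. Limb mesenchyme markers were present in every column, with Prrx1 at 106 to 246 FPKM and Twist1 at 110 to 202 FPKM. In bulk RNA, fewer cells of a type and less RNA per cell cannot be told apart.

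The members spanned a 6.22-fold range of levels in the controls. Fgfr1 was highest at 91.1 ± 4.96 FPKM (SD, n = 3), followed by Dusp6 at 64.1 ± 16.4 FPKM and Spry2 at 44.8 ± 6.27 FPKM. Spred1 was at 33.9 ± 6.27 FPKM, Spry1 at 31.9 ± 3.28 FPKM, Fgfr2 at 22.2 ± 3.38 FPKM and Etv5 at 21.6 ± 4.33 FPKM. The lowest were Etv4 at 18.6 ± 2.13 FPKM, Fgfr3 at 15.0 ± 0.369 FPKM and Spry4 at 14.6 ± 0.940 FPKM. In this order the control columns of Spry2 and Spred1, Spred1 and Spry1, Fgfr2 and Etv5, Etv5 and Etv4, and Fgfr3 and Spry4 overlapped, and those of the other neighbours did not. In the mutants Spry2, at 48.3 ± 15.2 FPKM, stood above Dusp6, at 46.7 ± 7.50 FPKM, but their columns overlapped. Fgfr3, at 19.2 ± 2.68 FPKM in the mutants, stood above Etv4, at 10.4 ± 2.84 FPKM, with no overlap, whereas in the controls it lay below Etv4 with no overlap.

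**Figure D1:**
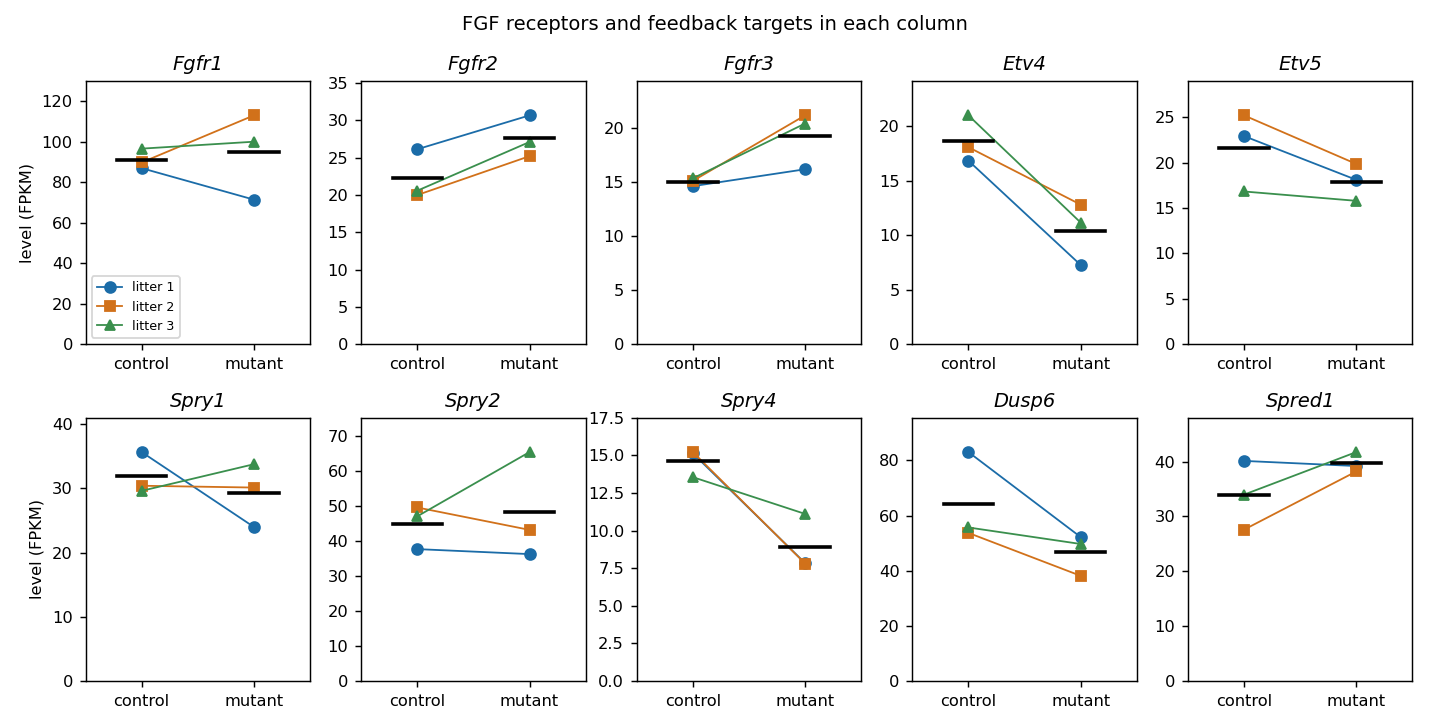
Level of each member in FPKM (vertical axes from 0, scaled per gene) in the control and mutant column of each litter, with lines joining columns of 1 litter and black bars at the group means. Etv4, Spry4 and Dusp6 have all mutant columns below all control columns, and Fgfr3 has all mutant columns above them.

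Mutants were compared with controls to ask which transcripts differ when Shox2 is disrupted in its own lineage. No member passed the adjusted threshold in limma (adjusted p under 0.05), and neither did any other row, 0% of 12314. At an unadjusted p under 0.05 the lower members were Etv4 and Spry4, 2 of 10 against 1.36% of all rows lower, and 0 of 10 were higher against 2.21%. Fgfr3 joined them as higher when columns were scaled to a common median or quantile-normalised. With litter as a block 0 members again passed the adjusted threshold. At an unadjusted p under 0.05 the block gave 5 of 10, with Etv4, Spry4 and Dusp6 lower against 6.29% of rows lower, and Fgfr2 and Fgfr3 higher against 5.34% of rows higher. Etv4, Etv5, Spry4 and Dusp6 were lower in all 3 litters, 4 of 10 members against 22.3% of rows. Fgfr2 and Fgfr3 were higher in all 3 litters, 2 of 10 against 15.7%. The groups did not overlap for Etv4, Spry4 and Dusp6, lower in 3 of 10 members against 5.03% of rows, and for Fgfr3, higher in 1 of 10 against 4.22%. Without the litter 3 pair 6 members were lower in both other litters, against 35.9% of rows. Without the litter 1 pair 4 were lower in both others against 30.4% of rows, and 4 were higher against 28.2%. The groups then did not overlap in 7 of 10 members, against 37.5% of rows. Differences below are of log2(FPKM + 1), which understates the change of low genes, and the exact two-sided permutation p of 3 columns against 3 cannot be smaller than 0.1.

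The 2 ETS factor genes were lower in the mutants of every litter, Etv4 by more than Etv5. Etv4 encodes an ETS transcription factor that acts with Etv5 in limb mesenchyme downstream of FGF. It was at 16.8, 18.1 and 20.99 FPKM in the controls of litters 1, 2 and 3 and at 7.26, 12.8 and 11.2 FPKM in the mutants. Every mutant column lay below every control column, at 43.1%, 70.8% and 53.1% of the control of its litter. Its log2 difference of -0.81 (SE 0.22), lower in 3 of 3 litters, had a limma adjusted p of 0.942, which was 0.107 when litter was a block. Only 0.901% of rows had a smaller unadjusted p, or 0.804% with the block. In the blocked fit that left litter 2 out, which has 1 residual degree of freedom, Etv4 was at -0.98 and passed (limma adjusted p = 2.16e-07), and over all alternatives the adjusted p ran from that value to 1.

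Etv5, the close relative of Etv4, was at 22.9, 25.2 and 16.8 FPKM in the controls and at 18.1, 19.9 and 15.8 FPKM in the mutants. The mutant of each litter was lower, at 79.0%, 78.8% and 93.9% of its control, but the litter 3 control lay below the mutants of the other litters and the groups overlapped. Etv5 differed by -0.25 on the log2 scale (SE 0.19, limma adjusted p = 1.00). It was -0.41 without control replicate 3, -0.13 without control replicate 2, -0.16 without mutant replicate 3 and -0.0045 with column weights. The ratio of Etv4 to Etv5 in FPKM was 0.734, 0.717 and 1.25 in the controls and 0.401, 0.645 and 0.706 in the mutants. It was below 1 in every column but the litter 3 control, and each mutant ratio was under each control ratio.

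Of the 3 Sprouty genes, which encode inhibitors between the receptor and ERK, Spry4 was lower in every mutant while Spry1 and Spry2 went either way. Spry4 was at 15.1, 15.2 and 13.6 FPKM in the controls and at 7.84, 7.81 and 11.1 FPKM in the mutants. The groups did not overlap, and the mutants stood at 51.8%, 51.3% and 81.9% of their controls, with litter 3 nearest to its control. Spry4 differed by -0.67 on the log2 scale (SE 0.17), with a limma adjusted p of 0.859, which was 0.196 when litter was a block. In the blocked fit that left litter 2 out it was -0.57 and passed (limma adjusted p = 0.00474), and over all alternatives the adjusted p ran from that value to 1.

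Spry1 was at 35.7, 30.4 and 29.6 FPKM in the controls and at 24.0, 30.1 and 33.8 FPKM in the mutants. It was lower in litter 1, nearly level in litter 2 and higher in litter 3, at 67.3%, 99.1% and 114% of the controls, with a log2 difference of -0.13 (SE 0.17, limma adjusted p = 1.00) whose sign turned without the litter 1 pair. Spry2 was at 37.7, 49.6 and 47.1 FPKM in the controls and at 36.3, 43.2 and 65.4 FPKM in the mutants. The litter 3 mutant was the highest of its 6 columns, at 139% of its control, while the mutants of litters 1 and 2 were at 96.2% and 87.1%. Its log2 difference was 0.07 (SE 0.24, limma adjusted p = 1.00), and without the litter 3 pair -0.12. Spry1 is 1 of the 2 members in the deposited list of genes that its file name calls directly repressed by Shox2, and it was higher in 1 of 3 litters.

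Because values per length can be compared between genes, the make-up of the Sprouty transcripts was set out by column. Spry4 made up 17.1%, 16.0% and 15.0% of the summed FPKM of Spry1, Spry2 and Spry4 in the controls and 11.5%, 9.63% and 10.1% in the mutants. All mutant shares of Spry4 lay below all control shares. The summed FPKM of the 3 genes was 88.5 to 95.2 in the controls and 68.1 to 110 in the mutants, so the sum did not separate the groups. Spry2 made up 42.6% to 52.2% in the controls and 53.2% to 59.3% in the mutants, and Spry1 31.9% to 40.3% and 30.6% to 37.1%.

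**Figure D2:**
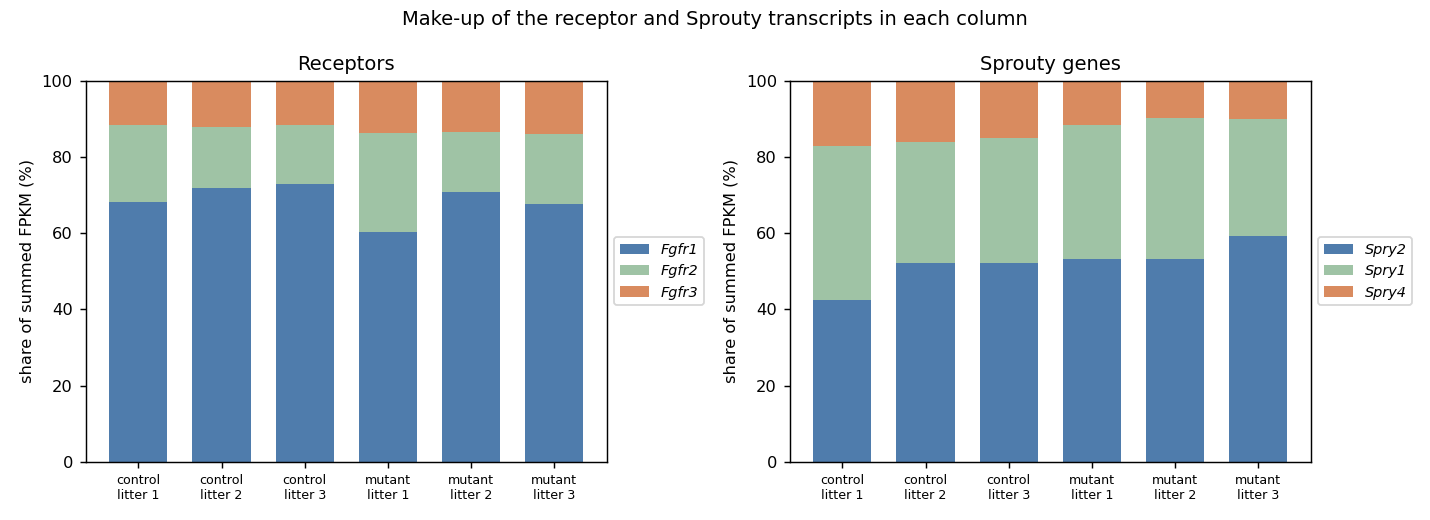
Share of the summed FPKM in percent (vertical axes) held by Fgfr1, Fgfr2 and Fgfr3 (left) and by Spry2, Spry1 and Spry4 (right) in each of the 6 columns. The share of Spry4 is 15.0% to 17.1% in the controls and 9.63% to 11.5% in the mutants, and that of Fgfr3 is 11.4% to 12.1% and 13.3% to 13.8%.

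Dusp6 and Spred1 act at other points of the same feedback, and only Dusp6 was lower in every litter. Dusp6, which dephosphorylates ERK in the cytoplasm, was at 83.0, 53.7 and 55.7 FPKM in the controls and at 52.2, 38.1 and 49.7 FPKM in the mutants. The groups were narrowly apart, since the highest mutant, of litter 1, lay just below the lowest control, of litter 2. This gap closed when columns were scaled to a common median or quantile-normalised. Within litters the mutants were at 62.8%, 71.0% and 89.2% of their controls. Its log2 difference of -0.43 (SE 0.22) had a limma adjusted p of 1.00, which was 0.322 when litter was a block. Without control replicate 1, the highest column, it was -0.24. Spred1, a membrane-bound inhibitor that recruits neurofibromin to Ras, was at 40.1, 27.6 and 34.0 FPKM in the controls and at 39.2, 38.2 and 41.7 FPKM in the mutants. The mutants were close to one another and the controls spread more widely, so that the mutants were at 97.7%, 138% and 123% of their controls and the groups overlapped. Its log2 difference was 0.24 (SE 0.17, limma adjusted p = 1.00), and it ran from 0.10 without control replicate 2 to 0.37 without the litter 1 pair.

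For 3 of the 4 targets that were lower in every litter, Etv5, Spry4 and Dusp6, the smallest difference was in litter 3, at -0.09, -0.27 and -0.16 on the log2 scale. In litters 1 and 2 these genes differed by -0.32 and -0.33, by -0.87 and -0.88, and by -0.66 and -0.48. Litter 3 was also the litter whose mutant kept most Shox2, with a log2 difference in Shox2 of -1.11 against -3.63 and -3.53. Etv4 did not follow this order, with -1.11, -0.47 and -0.86 in litters 1, 2 and 3. Nor did Fgfr2, with 0.22, 0.32 and 0.38, or Fgfr3, with 0.14, 0.46 and 0.39, which were higher in every litter. Spry1, with -0.55, -0.01 and 0.18, and Spry2, with -0.05, -0.20 and 0.47, were highest in litter 3. Spred1 had -0.03, 0.46 and 0.29 and Fgfr1 -0.28, 0.33 and 0.05. With 3 litters, no relation between the level of Shox2 and these genes was tested.

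**Figure D3:**
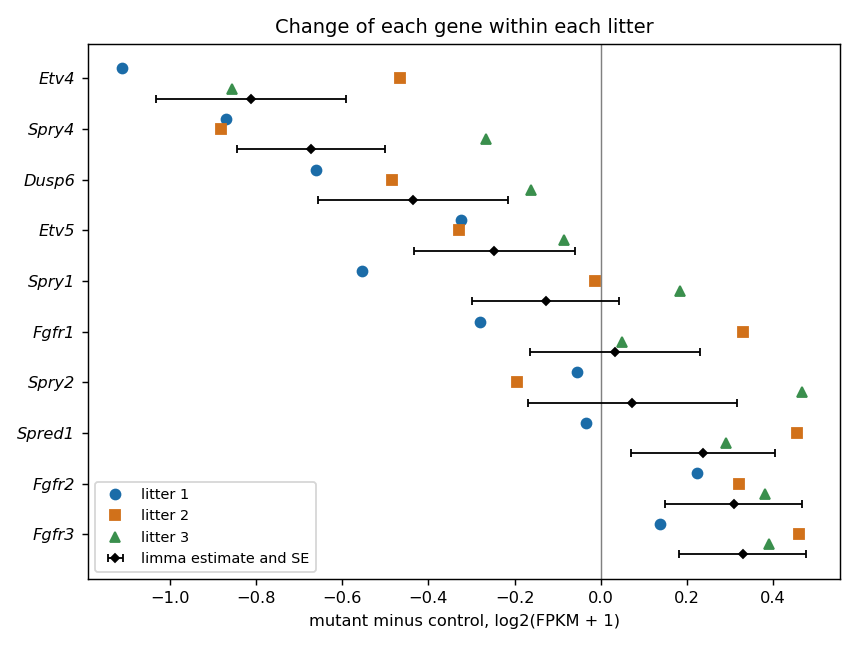
Difference between mutant and control in log2(FPKM + 1) (horizontal axis) for each member, with a coloured symbol per litter and a black diamond with bars for the limma estimate and its SE. Etv4, Spry4, Dusp6 and Etv5 lie left of 0 in all 3 litters and Fgfr2 and Fgfr3 right of 0, while Spry1, Fgfr1, Spry2 and Spred1 lie on both sides.

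Among the receptors, Fgfr2 and Fgfr3 were higher in the mutant of every litter and Fgfr1 was not. Fgfr3, which restrains chondrocyte proliferation, was at 14.6, 15.1 and 15.3 FPKM in the controls and at 16.2, 21.1 and 20.4 FPKM in the mutants. The controls were tightly grouped and every mutant lay above them, at 111%, 140% and 133% of the control of its litter. Its log2 difference of 0.33 (SE 0.15) had a limma adjusted p of 1.00, which was 0.384 when litter was a block. Of 8 chondrocyte markers, 2 were higher in all 3 litters without overlap and at an unadjusted p under 0.05 in limma. Of all rows, 4.22% were higher without overlap and 2.21% were higher at that p. Matn1, a cartilage matrix gene, was lower in all 3 litters, as were 22.3% of all rows. The 2 higher markers were Sox5 and Sox6, which encode partners of SOX9 in cartilage. Sox5, which is in the deposited list of genes called repressed by Shox2, was at 5.19, 6.33 and 6.86 FPKM in the controls and at 10.1, 12.7 and 10.2 FPKM in the mutants. Sox6 was at 8.10, 6.98 and 8.09 FPKM in the controls and at 11.3, 9.60 and 9.73 FPKM in the mutants. Over the 8 markers the summed level was 664 to 765 FPKM in the controls and 600 to 1011 FPKM in the mutants, with a median log2 difference of -0.06, 0.51 and 0.20 in litters 1, 2 and 3, and the part of cartilage cells in the level of Fgfr3 was not tested. None of these 8 markers was at 0.

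Fgfr2 was at 26.1, 20.0 and 20.6 FPKM in the controls and at 30.6, 25.2 and 27.1 FPKM in the mutants. The litter 1 control was higher than the litter 2 mutant, so the groups overlapped, although each mutant stood above its own control, at 117%, 126% and 132%. Fgfr2 differed by 0.31 on the log2 scale (SE 0.16), with a limma adjusted p of 1.00, which was 0.371 when litter was a block. Fgfr2 is the second member in that deposited list. Since the list could derive from these same columns, the direction of its genes is no independent evidence. The FGFR2 protein has an epithelial and a mesenchymal splice form, which the gene-level values cannot separate, and Esrp1, a splicing factor that favours the epithelial form, was at 0.104 to 0.941 FPKM over the 6 columns.

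Fgfr1 was at 87.0, 89.8 and 96.6 FPKM in the controls and at 71.4, 113 and 100.04 FPKM in the mutants. The mutants were more spread than the controls, at 82.1%, 126% and 104% of their controls, and lay on both sides of them. The log2 difference was 0.03 (SE 0.20, limma adjusted p = 1.00), and its sign turned without the litter 2 pair (-0.12). Fgfr1 held 68.1% to 72.9% of the summed FPKM of Fgfr1, Fgfr2 and Fgfr3 in the controls and 60.4% to 70.9% in the mutants. Fgfr3 held 11.4% to 12.1% of that sum in the controls and 13.3% to 13.8% in the mutants, without overlap. The summed FPKM of the receptors was 125 to 132 in the controls and 118 to 159 in the mutants, where litter 1 was below its control and litters 2 and 3 were above.

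In the GENCODE M21 annotation, exons of Fgfr2 overlap those of Ctbp2 on the same strand, and exons of Fgfr1, Fgfr3 and Spry1 overlap those of Gm16159, G630022F23Rik and Gm42922 on the opposite strand. No source used here says whether the counting used strand, so reads at these exons cannot be assigned with certainty. Gm16159 was not among the rows that passed the filter.

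The other genes of the pathway were taken from fixed lists, also chosen with earlier results of these data known. Of 22 FGF ligand genes, 8 passed the filter on low values and 12 were under 1 FPKM in every column, with Fgf20 at 0 throughout. Of the 8, 0 passed the adjusted threshold in limma. At an unadjusted p under 0.05, 1 was higher and 0 were lower, or 3 higher and 1 lower with litter as a block. Of all rows 2.21% were higher and 1.36% lower, or 5.34% and 6.29% with the block. Fgf12, among the higher genes of both fits, passed the filter only through the mutant columns. In all 3 litters 3 of the 8 were higher, against 15.7% of all rows, and 1 was lower, against 22.3%. Without overlap 1 was higher, again Fgf12, against 4.22%, and 1 lower, against 5.03%. The median log2 difference of the 8 ligands was 0.21, against -0.04 over all rows tested. It lay between Fgf13 at 0.21 and Fgf11 at 0.22, with Fgf7, Fgf8 and Fgf18 below 0. The list includes intracellular homologues, Fgf12 and Fgf13 among them. Among the ligands that did not pass, Fgf1 and Fgf5 were singled out after their values were seen. Fgf1 was at 0.980 to 1.23 FPKM in the controls and 0.418 to 0.618 FPKM in the mutants, and Fgf5 at 0.290 to 0.383 FPKM and 0.531 to 0.731 FPKM, each without overlap. The shares of rows without overlap given here cover only rows that passed the filter, so none is set beside Fgf1 and Fgf5.

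Fgf8, the ligand of the apical ridge, was the one ligand of the 8 that was lower in all 3 litters. It was at 6.12, 9.92 and 10.2 FPKM in the controls and at 2.52, 6.11 and 5.95 FPKM in the mutants. The groups were barely apart, since the litter 2 mutant and the litter 1 control were nearly level. Its log2 difference of -0.77 (SE 0.33) had a limma adjusted p of 1.00, which was 0.0998 when litter was a block. The 12 markers of surface ectoderm and ridge, Fgf8 among them, summed to 24.1 to 48.1 FPKM in the controls and 18.6 to 25.6 FPKM in the mutants, with none at 0 in all columns. Their tested members had a median log2 difference of 0.00, -0.68 and -0.05 in litters 1, 2 and 3, where Fgf8 differed by -1.01, -0.62 and -0.68. Of the 6 tested, Fgf8, Krt18 and Epcam were lower in all 3 litters, against 22.3% of all rows, and 0 were higher, against 15.7%. The other tested markers, Krt5, Krt14 and Krt15, were at 186%, 141% and 163% of control in litter 1. In litter 2 they were at 47.6%, 34.6% and 44.3%, and in litter 3 at 95.4%, 93.3% and 106%. The untested Krt8, Cdh1, Trp63, Esrp1, Grhl3 and Sp8 were likewise higher in the mutant of litter 1 and lower in that of litter 2. The keratin gene Krt18 was at 8.88, 9.69 and 8.10 FPKM in the controls and at 5.41, 6.07 and 5.42 FPKM in the mutants. It did not overlap between groups, as Fgf8 did not, with differences of -0.62, -0.60 and -0.50 in litters 1, 2 and 3. Epcam and Krt5 overlapped, at 3.42 to 5.41 FPKM and 0.680 to 8.02 FPKM over the 6 columns, and the part of ectoderm in the level of Fgf8 was not tested.

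Fgf10, the mesenchymal ligand that signals to the ridge, was at 3.30, 5.72 and 7.74 FPKM in the controls and at 4.70, 11.7 and 11.3 FPKM in the mutants. It was higher in each litter with overlapping groups, and its log2 difference was 0.60 (SE 0.39, limma adjusted p = 1.00, which was 0.203 when litter was a block). Fgf12 is an intracellular homologue that does not act through receptors. It was at 0.575 to 0.961 FPKM in the controls and 1.52 to 1.73 FPKM in the mutants, without overlap. Without the block it was the ligand past an unadjusted p of 0.05 in limma. Since it passed the filter only through the mutant columns, where it was high, neither its p nor its lack of overlap is independent evidence. Fgf13, another intracellular homologue, was higher in 3 of 3 litters with a log2 difference of 0.21 (SE 0.49). Fgf2 was at 4.47, 0.525 and 3.48 FPKM in the controls and at 4.19, 4.31 and 7.74 FPKM in the mutants, and the low control of litter 2 carried much of its log2 difference of 0.90 (SE 0.50). Fgf18, a ligand of cartilage and bone that signals to FGFR3, had the highest level of the 8 ligands in each control and mutant column, at 16.6 to 30.4 FPKM and 13.7 to 24.7 FPKM. Its groups overlapped, as did those of Fgf7 and Fgf11, and the log2 differences of these 3 were -0.15, -0.22 and 0.22.

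Of 10 other receptors, co-receptors and binding proteins, 7 passed the filter and 0 passed the adjusted threshold in limma. With litter as a block 1 was higher at an unadjusted p under 0.05, against 5.34% of all rows, where without it there was none. That gene was Flrt2, a membrane protein of the FLRT family, at 71.2, 35.7 and 41.9 FPKM in the controls and at 93.1, 61.4 and 54.1 FPKM in the mutants. It was higher in 3 of 3 litters, with a log2 difference of 0.50 (SE 0.31), although the groups overlapped. Its relative Flrt3 was lower in 3 of 3 litters, with a log2 difference of -0.18 (SE 0.40), and Flrt1 had -0.30 (SE 0.27). Fgfrl1, a receptor without a kinase domain, had 0.33 (SE 0.20) and was higher in 2 of 3 litters. Fgfr4, at 1.61 to 4.02 FPKM over the 6 columns, had 0.30 (SE 0.28), Il17rd, an inhibitor also called Sef, -0.08 (SE 0.13), and Fgfbp3 -0.20 (SE 0.34). Of the 7, 1 was higher in all 3 litters, against 15.7% of all rows, and 1 was lower, against 22.3%.

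All 12 other feedback and target genes of ERK passed the filter, and 0 passed the adjusted threshold in limma. At an unadjusted p under 0.05 there were 0, or 3 lower and 0 higher with litter as a block. Of all rows 6.29% were lower and 5.34% higher with the block. In all 3 litters 5 were lower, against 22.3% of all rows, and 0 were higher, against 15.7%. Phlda1, induced by growth factors, was at 12.9, 42.4 and 31.7 FPKM in the controls and at 6.28, 24.7 and 24.2 FPKM in the mutants. Litters differed more than groups in this gene, and its log2 difference was -0.69 (SE 0.62, limma adjusted p = 1.00, or 0.143 with the block). The proto-oncogene Myc had a log2 difference of -0.37 (SE 0.29), Spred3, a relative of Spred1, -0.34 (SE 0.25) and Ccnd1, which encodes cyclin D1, -0.19 (SE 0.16), each lower in 3 of 3 litters. The fifth was Etv1, the third member of the Etv4 and Etv5 subfamily, named after its values were seen, with -0.06 (SE 0.30). The median of the list was -0.11, against -0.04 over all rows.

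**Figure D4:**
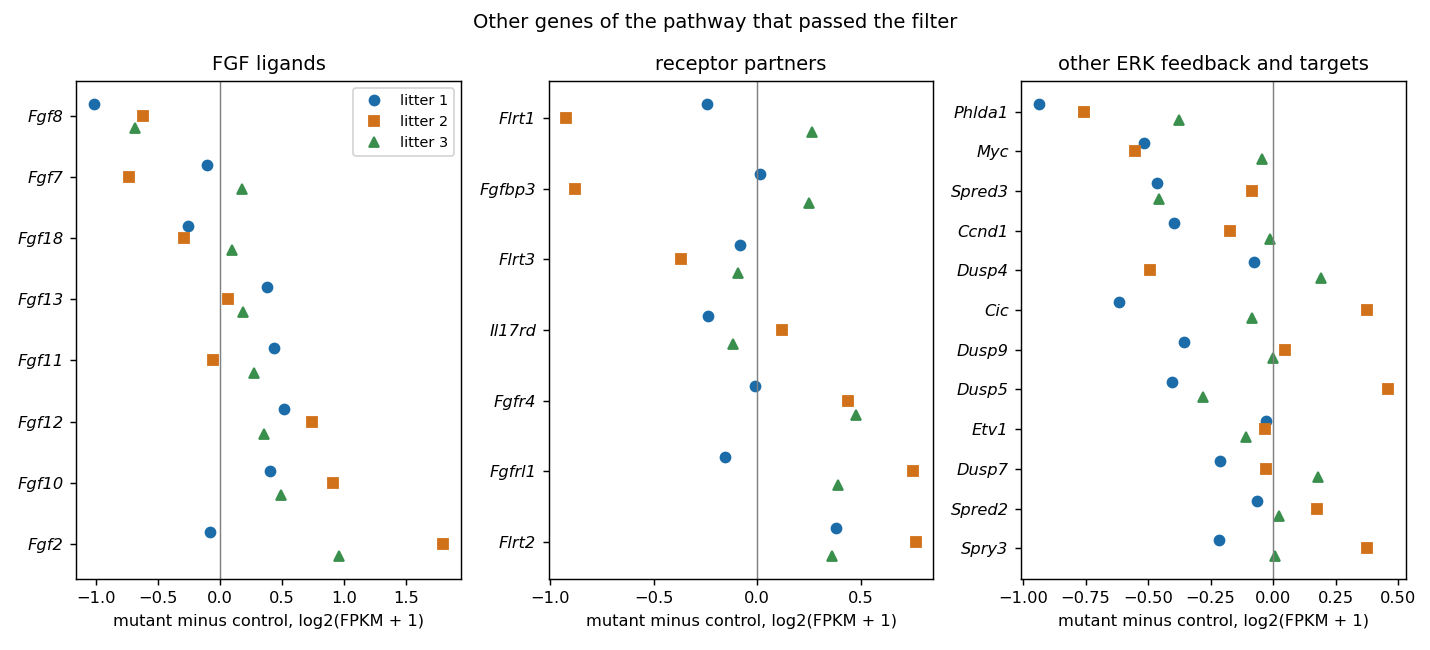
Difference between mutant and control in log2(FPKM + 1) (horizontal axes) in each litter for the FGF ligands, the receptor partners and the other ERK feedback and target genes that passed the filter. Fgf8, Flrt3, Phlda1, Myc, Spred3, Ccnd1 and Etv1 lie left of 0 in all 3 litters, and Fgf10, Fgf12, Fgf13 and Flrt2 right of it.

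The relay from receptor to ERK showed no single direction. All 24 genes passed the filter and 0 passed the adjusted threshold in limma. At an unadjusted p under 0.05 there was 1 higher, against 2.21% of all rows, and 0 lower, against 1.36%. With litter as a block 2 were higher, against 5.34%, and 0 lower, against 6.29%. The one without the block was Map2k1, which encodes the ERK kinase MEK1, at 26.6, 28.6 and 27.1 FPKM in the controls and at 31.8, 38.9 and 33.6 FPKM in the mutants, without overlap. Its partner Map2k2 was lower in 3 of 3 litters with a log2 difference of -0.28 (SE 0.20), where Map2k1 had 0.33 (SE 0.13). Hras was at 18.2, 21.5 and 18.0 FPKM in the controls and at 14.1, 15.5 and 17.5 FPKM in the mutants, without overlap, and Braf was higher in 3 of 3 litters with 0.24 (SE 0.18). In all 3 litters 7 of the 24 were higher, against 15.7% of all rows, and 4 were lower, against 22.3%. Without overlap 2 were higher, against 4.22%, and 1 lower, against 5.03%. The median of the list was 0.07, against -0.04 over all rows.

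Immediate early genes respond to ERK and also to cell dissociation, so they are given beside the feedback targets. Of 16, 13 passed the filter, and their median log2 difference was -0.63, -0.01 and 0.14 in litters 1, 2 and 3. The median of the 7 feedback targets was -0.55, -0.33 and -0.09 in the same litters. Both lists were thus lowest in litter 1 and highest in litter 3. This order also held over all tested rows, at -0.070, -0.030 and 0.003, and in the 12 other ERK genes, at -0.38, -0.030 and -0.028. The part of dissociation in the level of the feedback targets was not tested. The summed level of the 16 immediate early genes was 630 to 874 FPKM in the controls and 467 to 833 FPKM in the mutants, and none was at 0 in all columns. In limma 0 passed the adjusted threshold, and an unadjusted p under 0.05 was reached by 1 gene higher and 1 lower, or by 3 higher and 2 lower with the block. Of all rows 2.21% were higher and 1.36% lower, or 5.34% and 6.29% with the block. Junb, an AP-1 subunit, was at 29.1, 29.3 and 17.8 FPKM in the controls and at 13.9, 18.2 and 17.2 FPKM in the mutants. Ier3 went the other way, at 2.51 to 3.52 FPKM in the controls and 4.30 to 5.58 FPKM in the mutants. The heat-shock gene Hspa1a had 1.70, 3.57 and 0.275 FPKM in the controls against 29.2, 50.4 and 0.583 FPKM in the mutants. Hspa1b, its near-identical neighbour, whose reads could be split between the copies, had 2.39, 6.74 and 0.493 FPKM against 31.0, 65.8 and 1.09 FPKM.

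Markers of endothelium, muscle, nerve and glia, red cells and leukocytes had medians of different sign in the 3 litters, apart from endothelium, which had -0.12, -0.90 and -0.24. The endothelial medians are over the 4 markers that passed the filter, Pecam1, Kdr, Tek and Cldn5, and Cldn5 passed only through the control columns. In litter 1 the mutant was at 165%, 135% and 112% of control for Pecam1, Cdh5 and Tie1, and Tek was at 124% in litter 3. Kdr, Emcn, Cldn5 and Esam were lower in all 3 litters. The 8 endothelial markers summed to 6.97 to 18.9 FPKM in the controls and 5.80 to 6.03 FPKM in the mutants, with none at 0 in all columns. All mutant sums lay below all control sums, and their part in the levels of the members was not tested.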

How the data were processed

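RNA from sorted embryonic limb cells was sequenced, and the authors deposited 1 expression value per gene, genotype and litter. The tools named are TopHat and Cuffdiff and the build is mm9, per the submitters' processing notes, with versions, annotation and filters not given in the sources used here. Values were normalised by Cuffdiff's geometric method, per the file headers, which give it once for every litter, so scalings may differ between litters. The deposited values were taken as FPKM, since Cuffdiff reports that unit and the header names none. Depth is unknown: among rows under 0.15 FPKM in both columns of a litter, ratios within 0.05 of -1, 0 or 1 on the log2 scale made up 8.13%, 6.12% and 44.5% in litters 1, 2 and 3.

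Columns were matched to samples by the litter and genotype in the headers. All 12314 rows with 1 FPKM or more in at least 3 of 6 columns were tested on log2(FPKM + 1) in limma 3.58.1 (R 4.3.3) with its trend option. Benjamini-Hochberg adjustment ran over these rows, with a threshold of 0.05. Whether replicates came from separate embryos is not stated, so p-values measure the spread between columns. Litter numbers pair the columns, as the labels say that a number marks a litter, and deviations from group means correlated at 0.87, 0.57 and 0.77 within litters. A second fit took litter as a block, and 19 alternatives were run per result, 3 of them chosen after seeing the data. The design listed 3 control and 4 mutant samples, but the table had 6 columns. The fit was tested on simulated data, with changes larger than any member's log2 difference in the main fit. That test therefore does not bear on changes of the members' size. Members and gene lists were chosen with earlier results of these data known. Named were all members, the ligands, receptors and partners past the filter, and up to 4 genes with the smallest p of each other pathway list. Promoter sequences are RefSeq's, on GRCm38.p6, and overlaps of genes are from GENCODE M21.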

Additional observations from a re-analysis of the deposited data

How the results depend on the processing

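Each result was recomputed under 19 alternatives, among them 12 that left out a column or a litter pair. The count of all rows past the adjusted threshold in limma was 0, or 15 with column weights, and ran from 0 to 534 when columns or pairs were left out. It was 1 without control replicate 3, 1 without mutant replicate 3, 36 in the replicate block fit that left out litter 3, and 534 in the one that left out litter 2. Both of these blocked fits have 1 residual degree of freedom. Members past the threshold ran from 0 to 2 over the same 12, the 2 being Etv4 and Spry4 in the fit with 534. Members at an unadjusted p under 0.05 numbered 2, or 5 with the replicate block and 5 with column weights. Among all 12314 rows these settings gave 439, 1433 and 1088. The members numbered 3, with Fgfr3 added, without the filter, with a filter at a mean of 5 FPKM, with a common median and with quantile normalisation. Among all rows these gave 752 of 18856, 238 of 9629, 459 of 12314 and 460 of 12314. With columns or pairs left out, members ran from 1 to 5 and all rows from 193 to 1759 of 12314. Without the block there was 1 member when the litter 2 pair or the litter 3 pair was left out, and 4 without the litter 1 pair. All rows then numbered 200, 193 and 532. Members lower in all litters kept ran from 4 to 6, members higher in all of them from 2 to 4, and members without overlap between groups from 4 to 7, the last without the litter 1 pair, where 37.5% of all rows did not overlap. With a common median or quantile normalisation 3 members did not overlap, and Dusp6 was the one lost.

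Etv4, Etv5, Spry4 and Dusp6 were lower, and Spred1, Fgfr2 and Fgfr3 higher, under all 19 alternatives. Etv4 ran from -0.98 to -0.59 and Spry4 from -0.88 to -0.55. The sign of Spry1 turned with column weights, to 0.045, and with columns or pairs left out it ran from -0.28 to 0.085. Spry2 ran from -0.16 to 0.25 and Fgfr1 from -0.12 to 0.22 when columns or pairs were left out. The cause was not tested. Depth is unknown, and 3 columns per group limit the precision.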
